A study of Mus musculus with 8 samples.

Results

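CD45+/Sca1+ cells sorted from muscle injured with cardiotoxin, in mice without a bone marrow transplant, were compared with CD45+/Sca1+ cells sorted from bone marrow. The comparison took the 2 arrays titled for injured muscle without transplant and the 2 arrays titled for bone marrow, 4 of the 8 arrays of the series, and was made over all probe sets other than controls. The mice were C57BL/6, 6 to 8 weeks old. Cardiotoxin is a snake venom toxin that destroys muscle fibres while leaving the stem cells of the muscle able to rebuild them. The other arrays were 2 of CD45+/Sca1+ cells from uninjured muscle and 2 of the same cells from injured muscle of bone marrow transplanted mice. The sources used here do not give the time after injury, the number of animals behind each array or any pooling. The labels do not say that the replicates came from separate animals, so each p-value reflects array-to-array spread alone, part or all of which may be technical.

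CD45, encoded by Ptprc, is a phosphatase on the surface of nearly all white blood cells, and Sca1, encoded by Ly6a, is a small surface protein used to enrich stem and progenitor cells in bone marrow. Sca1 is also carried by activated lymphocytes, by many mesenchymal and endothelial cells of muscle, and by cells exposed to interferon. After cardiotoxin injury monocytes leave the blood, enter the muscle, turn into macrophages that clear dead fibres and then make factors used in repair, while fibroblast-like cells lay down matrix. Bone marrow holds the stem and progenitor cells and the maturing neutrophils, B cells and red cells that feed the blood.

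The deposited values were intensities scaled by the authors to 1 mean per array, and the medians of the 4 arrays lay between 59.1 and 66.3. Across tested probe sets (genes are no independent replicates) the bone marrow arrays correlated at 0.929, the injured arrays at 0.956, and arrays of the 2 groups at 0.679 to 0.689. Ptprc read 5007 and 5727 in bone marrow and 5976 and 6996 in injured muscle, a log2 difference of 0.27 ± 0.21 (SE, n = 2 per group) that did not pass the test (limma, adjusted p = 0.36). Its sign depended on the scale, with log2 -0.29 after quantile normalization and -1.52 when the arrays were centred on the spiked controls. The probe annotation used here named no probe set for Ly6a, so the Sca1 transcript was not analysed here. Control transcripts set the groups apart. The ratio of signal at the 3′ end to signal at the 5′ end, which rises when RNA is broken or copied incompletely, was 24.4 and 10.7 for Gapdh on the bone marrow arrays and 0.833 and 0.808 on the injured arrays. The spiked bacterial control transcripts averaged 1846 and 2641 on the bone marrow arrays and 7875 and 7421 on the injured arrays, and the brightest probe sets reached 10826 and 14223 against 28264 and 28665. None of these ranges overlapped between the groups, so their part in any difference below cannot be told apart from the comparison itself. The uninjured muscle arrays lay on the bone marrow side, with Gapdh ratios of 46.9 and 13.6 and spiked controls of 2467 and 3084. They correlated with each other at 0.837. The same limit therefore holds for every comparison of injured with uninjured muscle below.

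Values were compared as log2(value + 4) for the 16289 probe sets that reached 38.4 on at least 2 arrays. A probe set was called where limma, fitted over all 8 arrays, gave a Benjamini-Hochberg adjusted p under 0.05. For a gene with several probe sets, the one with the highest mean stands for the gene unless stated. Of 9513 genes tested, 1201 were higher in injured muscle than in bone marrow (12.6%) and 1637 were lower (17.2%). The median gene lay at a log2 difference of -0.27. Complete separation of 2 arrays from 2 others was common and carries little weight alone, since the arrays of the 2 groups did not overlap for 6961 genes (73.2%).

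Agreement between the probe sets of a gene was counted next, since 3544 tested genes had several. All tested probe sets were called higher for 243 of these genes (6.86%) and all lower for 130 (3.67%), while 136 genes had probe sets called in opposite directions. Where the brightest probe set was called higher, the others were all called higher as well for 243 of 498 genes (48.8%), and at least 1 of them was called lower for 27. Where the brightest was called lower, the others followed for 130 of 735 genes (17.7%), and at least 1 was called higher for 76. A gene called higher was therefore backed by its other probe sets more often than a gene called lower. The other probe sets had a median log2 difference of 0.10, the brightest ones -0.27. The 3′/5′ ratios given above differ between the groups, and their part in this offset was not tested. Counts of agreeing genes moved with single arrays. Without either injured array 107 and 111 genes agreed higher, and without bone marrow replicate 2 155 did. Agreeing lower genes numbered 37 and 43 without either injured array, 48 and 67 without either bone marrow array, and 208 and 207 without either uninjured array.

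**Figure D1:**
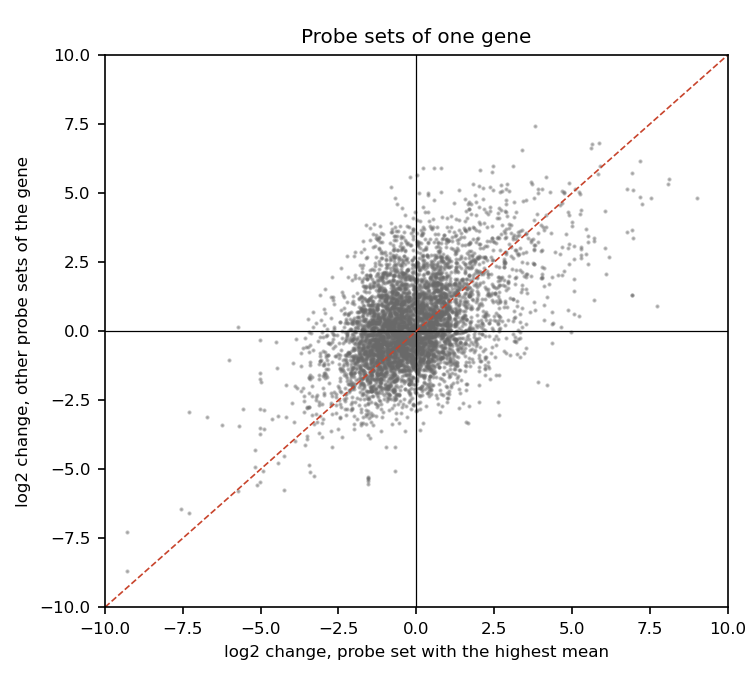
Log2 difference, injured muscle minus bone marrow, of the brightest probe set of each gene (horizontal axis) against that of each of its other tested probe sets (vertical axis), with 1 point per pair (5439 pairs). The dashed line marks equal values. Points scatter widely around it, and 58.7% of the other probe sets lie above the value of the brightest one.

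Among genes whose probe sets all rose, the 14 ranked first by their least changed probe set were mostly matrix genes and genes of macrophages. C3ar1, the receptor for the complement fragment C3a, read 84.1 and 46.9 in bone marrow and 3944 and 4144 in injured muscle, a 60.4-fold difference (log2 5.92 ± 0.31, adjusted p = 3.42e-05, limma), and its second probe set gave 63.6-fold. Rab7b, a small GTPase of late endosomes in myeloid cells, rose from 31 and 64.2 to 2789 and 2817. Cxcl16, a membrane-bound chemokine that also takes up oxidised lipid, rose from 52.6 and 47.9 to 2584 and 2796, a 49.6-fold difference. Both injured arrays lay above both bone marrow arrays on every probe set of these 3 genes, which was a condition of their choice.

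Most of the matrix genes were below the filter value in bone marrow on their brightest probe set, with Col1a2, at 56.9 and 161, above it. Where both arrays of the lower group lay under 38.4, that group was set to 38.4 and the fold is given as at least so much. Col3a1, a fibrillar collagen chain of wounds and loose tissue, read 24.6 and 10 in bone marrow and 10290 and 10693 in injured muscle, at least 248-fold higher. Sparc, a collagen-binding matrix protein, read 4.88 and 10.5 against 3119 and 3164, at least 74.2-fold higher. Col1a2, Col5a2, Lox (the enzyme that cross-links collagen), Fstl1, Ogn, Bgn and Pcolce belonged to the same set of 14 genes, as did Thbs1, a secreted adhesion protein made by platelets and macrophages, and Ms4a6d, a membrane protein of macrophages. Separation of the groups without overlap on every probe set was a condition for choosing these 14 genes. Of the 14, only Pcolce differed between untransplanted and transplanted injured muscle on its brightest probe set (log2 2.54 ± 0.33, adjusted p = 0.0357, limma).

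The genes whose probe sets all fell were led by lymphoid genes. Igha, the heavy chain of the antibody class IgA, read 9766 and 11156 in bone marrow and 16.5 and 9.34 in injured muscle, at least 246-fold lower on its brightest probe set (adjusted p = 1.49e-05, limma) and 154-fold lower on the least changed of 3. Ms4a1, which encodes the B cell surface protein CD20, fell from 3483 and 3929 to 19.7 and 12.3, at least 87.4-fold. Myb, a transcription factor of blood progenitors, fell from 2498 and 995 to 33.3 and 21.2, at least 37.3-fold. Satb1, a chromatin organiser of lymphoid progenitors, read 462 and 1019 against 35.9 and 29.6. Gimap4, a GTPase of lymphocytes, fell 21.8-fold and Slc2a3, a high-affinity glucose transporter, 30.5-fold. The other genes of this set of 14 were Pacsin1, Klk1, Ceacam10, Tmem40, Ptprf, 1700097N02Rik, Spint2 and Cd24a, a surface protein of immature blood cells that fell from 3359 and 3944 to 365 and 376. Ceacam10 was no longer called without either bone marrow array or without injured replicate 1, and Ptprf without bone marrow replicate 1 or injured replicate 1. Probe sets of antibody genes can bind related chains, so the share of each chain in the Igha and Ighm signals is uncertain.

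**Figure D2:**
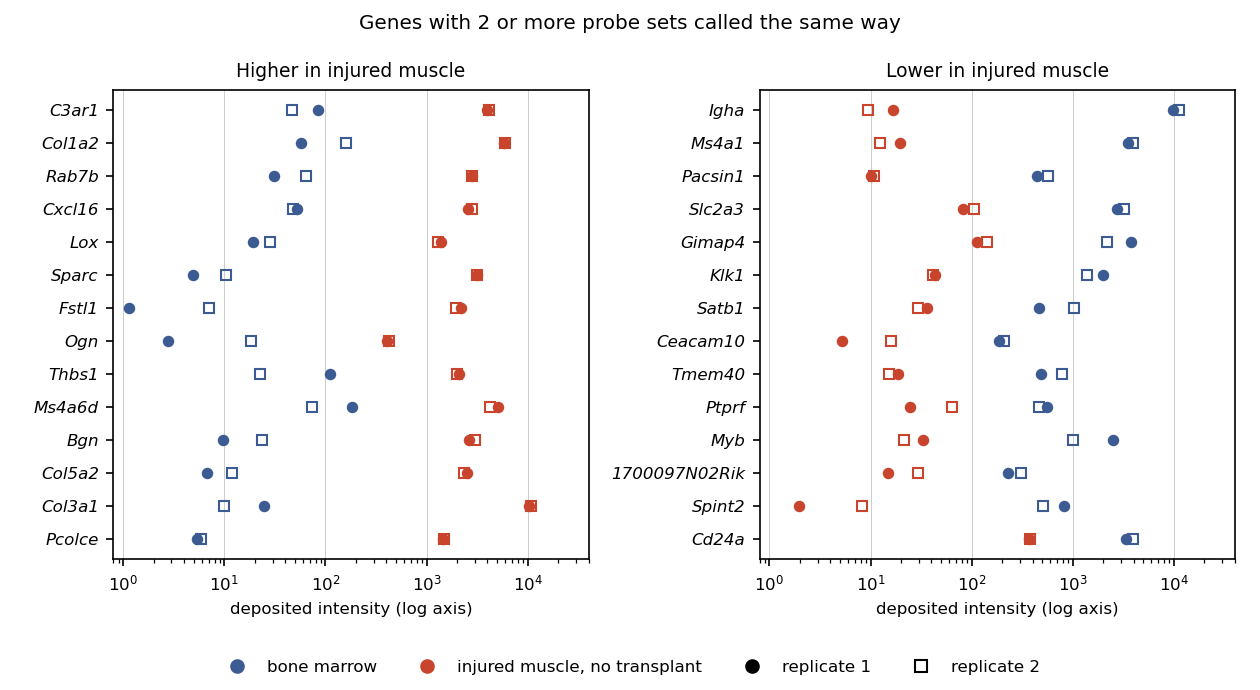
Deposited intensity (log axis) of the brightest probe set of the 14 genes whose probe sets all rose (left) and the 14 whose probe sets all fell (right), for the 2 bone marrow arrays (blue) and the 2 injured arrays (red), with filled circles for replicate 1 and open squares for replicate 2. Separation of the groups was a condition for choosing these 28 genes. The bone marrow values of the matrix genes on the left lie mostly under 38.4.

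Gene lists of cell types and pathways were then read by how many tested members were called, beside the background shares of 12.6% higher and 17.2% lower. Where 0 members of a list were called in a direction, 0 also passed an unadjusted p under 0.05 in limma, except for 1 each among the antibody receptor, MHC class I, pericyte (lower) and early B lymphoid (higher) lists and 2 among the respiratory chain genes (lower). In sorted cells measured in bulk, fewer cells of a type and less RNA of that type per cell cannot be told apart. Monocyte and macrophage genes stood at the top, with 23 of 25 tested members higher and 0 lower (26 listed, median log2 difference 4.14). Ms4a7, a membrane protein of mature macrophages, read 153 and 150 in bone marrow and 7311 and 6754 in injured muscle, 45.2-fold higher (log2 5.50 ± 0.21, adjusted p = 1.49e-05, limma). Mertk, the receptor by which macrophages recognise dying cells, read 36.5 and 27.6 against 1395 and 1146, at least 29.9-fold higher. F13a1, the clotting factor chain made by monocytes and macrophages, rose from 389 and 435 to 7472 and 7173. The members not called were Ctsd, a lysosomal protease, at 1849 and 2641 against 7791 and 7128, and Adgre4, at 182 and 91.8 against 96 and 86.5. The list held 21 to 24 higher members under every other normalization, filter and fit and with each array left out and 18 when the arrays were centred on the spiked controls. Summed over its members, the list read 26414 and 23859 in marrow, 46524 and 60714 in uninjured muscle, 165789 and 168713 in untransplanted injured muscle and 171904 and 155179 in transplanted injured muscle. Against uninjured muscle 22 of the 25 members were higher in untransplanted injured muscle (8.77% of all genes were) and Adgre4 was lower, and against transplanted injured muscle 1 differed, F13a1, at a log2 difference of 1.90.

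**Figure D3:**
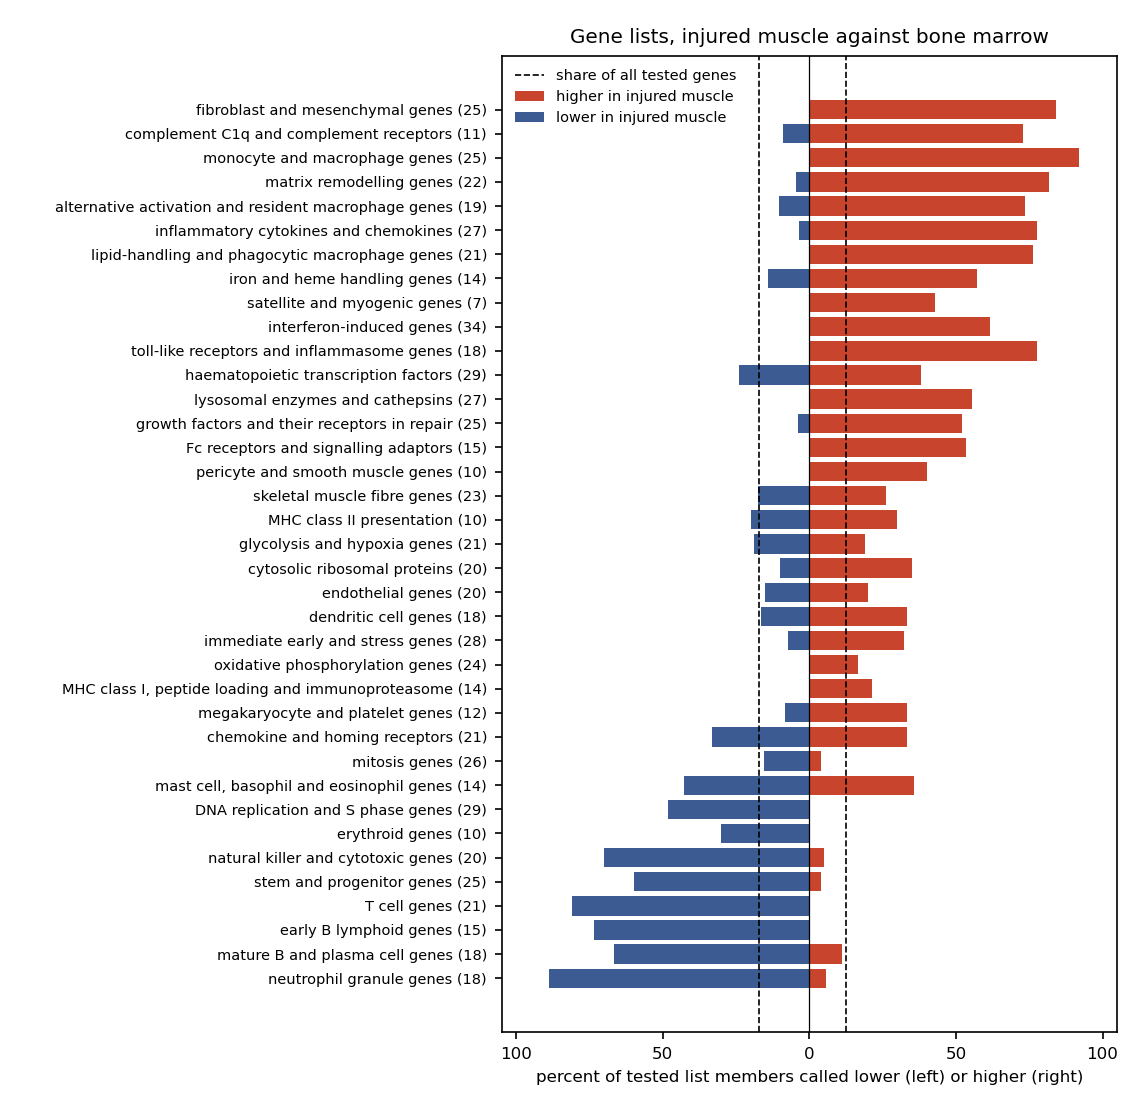
Percent of the tested members of each of 37 gene lists called higher (red, right) or lower (blue, left) in injured muscle than in bone marrow, ordered by the list's median difference, with the number tested in brackets and dashed lines at the shares of all tested genes (12.6% and 17.2%). Macrophage, complement, matrix and fibroblast lists lie far to the right of the line and neutrophil, T cell and B cell lists far to the left.

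Receptors and proteins by which macrophages take up debris rose with them. Of 11 complement genes tested, 8 were higher and 1 was lower, and the 8 fell to 5 without injured replicate 2. C1qc, a chain of the first complement component, read 128 and 166 in bone marrow and 6335 and 6997 in injured muscle, 44.4-fold higher, and Cfb, a protease of the alternative complement pathway, was at least 42.6-fold higher. The lower member was Cr2, the complement receptor of B cells and follicular dendritic cells, which fell from 701 and 662 to 5.23 and 4.32. After centring on the spiked controls 7 complement genes were higher and 3 lower. Of 15 tested genes for antibody receptors and their signalling adaptors, 8 were higher and 0 lower, or 2 lower without either uninjured array. Fcgr1, the high-affinity receptor for IgG, read 124 and 81.6 against 4688 and 4158, a 42.2-fold difference. Fcgr2b, the inhibitory receptor, rose 15.1-fold and all 4 of its probe sets were called, and Fcgr3 rose 13.3-fold. Fcer1g, a signalling chain of activating antibody receptors, rose 13-fold from 631 and 657 to 8211 and 8585. When the arrays were centred on the spiked controls the antibody receptor list had 4 higher and 5 lower members.

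Genes for handling lipid and engulfed cells were higher for 16 of 21 tested members and lower for 0. After centring on the spiked controls 10 of them were higher and 3 lower. Lgals3, a galactose-binding protein of macrophages, read 785 and 1262 in bone marrow and 18406 and 18692 in injured muscle, 18.6-fold higher. Gas6, the ligand that bridges Mertk to dying cells, rose from 43.9 and 46.4 to 2338 and 2293, a 47.2-fold difference. Fabp5, a fatty acid carrier, rose 10.7-fold and Lpl, the lipase that frees fatty acids from lipoproteins, 12.8-fold, and both probe sets of each were called. Genes of alternatively activated and resident macrophages were higher for 14 of 19 members and lower for 2. Folr2, a folate receptor of resident macrophages, read 34.1 and 38 against 3073 and 2958, at least 71.2-fold higher, and Mrc1, the mannose receptor, rose 31.8-fold from 196 and 112 to 4909 and 4778. Cbr2, a carbonyl reductase, was at least 112-fold higher and Ccl24, a chemokine for eosinophils, at least 10.3-fold. None of these 4 genes passed the test against uninjured muscle, where the list had 4 members higher and 6 lower in injured muscle. The 2 members lower than in bone marrow were Chil3, a chitinase-like protein also made by marrow neutrophils, and Pdcd1lg2. The count of lower members was 1 without bone marrow replicate 2 or injured replicate 2.

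Lysosomal enzymes and cathepsins, which digest what macrophages take up, were higher for 15 of 27 tested members and lower for 0, with 23 higher without either uninjured array. Gla, an enzyme that removes galactose from lipids, rose from 65.7 and 56.8 to 1069 and 1078, 16.6-fold. Atp6v1a, a subunit of the proton pump that acidifies the lysosome, rose from 130 and 231 to 2911 and 2948, also 16.6-fold. Ctsb and Ctsc, lysosomal proteases, rose 4.08-fold and 5.24-fold. The direction of this list depended on the scale, since centring on the spiked controls left 3 members higher and 8 lower. Toll-like receptors and inflammasome genes, which sense microbes and damage, were higher for 14 of 18 members and lower for 0. After centring on the spiked controls 6 of them were higher and 3 lower. The higher count was 8 without either injured array and 9 without bone marrow replicate 2. Cd14, the coreceptor for bacterial lipopolysaccharide, read 226 and 288 in bone marrow and 10544 and 11948 in injured muscle, 43.3-fold higher. Tlr8 was at least 6.94-fold higher, and the cytokines Il1b and Il18, which inflammasomes release, rose 14.9-fold and 8.31-fold.

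Chemokines that attract monocytes were among the genes of 1 probe set that rose most. Of 27 cytokines and chemokines tested, 21 were higher and 1 lower, with 20 to 24 higher under those other settings and 17 after centring on the spiked controls. Ccl7, which attracts monocytes through the receptor Ccr2, read 8.09 and 21.7 in bone marrow and 6158 and 5921 in injured muscle, at least 143-fold higher (log2 8.42 ± 0.39, adjusted p = 2.13e-05, limma). Ccl2, the main attractant of monocytes, rose 85.5-fold from 88.1 and 101 to 8395 and 8438, and Ccl12 rose at least 59.4-fold. Cxcl1, which attracts neutrophils, read 10.9 and 12.1 against 1861 and 1799, at least 43.3-fold higher. The lower member was Ccl5, a chemokine of T cells and natural killer cells, which fell from 2312 and 3794 to 331 and 268. Against uninjured muscle Ccl2, Ccl7 and Ccl12 were higher by log2 2.60, 2.54 and 2.52, all called, while Cxcl1 differed by 0.16 and was not called.

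Receptors for homing split evenly, with 7 of 21 tested members higher and 7 lower. Ccr2, the receptor for the Ccl2 family, rose from 64.2 and 51.8 to 2560 and 3135, 46-fold, on all 3 of its probe sets, and Ccr1, a receptor for inflammatory chemokines, rose 6.86-fold on both of its probe sets. The lower members included Ccr9, a receptor of gut-homing lymphocytes and plasmacytoid dendritic cells, which fell 25-fold from 1489 and 1737 to 62.9 and 58.2. S1pr4, a lipid receptor of lymphocytes, fell 13.9-fold from 597 and 933 to 44 and 56.6. Centring on the spiked controls left 4 members higher and 12 lower.

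Interferon-induced genes were higher in injured muscle for 21 of 34 tested members and lower for 0 (median log2 difference 1.80). Interferons act through receptors that activate STAT proteins, which bind short sequences near the genes they turn on. Zbp1, a sensor of left-handed nucleic acid, read 56 and 55.6 in bone marrow and 1880 and 1491 in injured muscle, 28.1-fold higher (log2 4.81 ± 0.29, adjusted p = 5.60e-05, limma), on both of its probe sets. Cxcl10, which attracts activated T cells, rose 26.1-fold from 69.2 and 135 to 2706 and 2563. The antiviral genes Ifit2 and Ifit3 rose 10.1-fold, from 267 and 194 to 2455 and 2224, and 7.38-fold, from 356 and 354 to 2812 and 2484. The higher count ran from 15 to 24 over those other settings, and 1 member was lower without either uninjured array. Centring on the spiked controls left 9 higher and 7 lower. Against uninjured muscle 23 of the 34 were higher, and against transplanted injured muscle 0 differed (limma, where 0.273% of all genes were higher and 0.042% lower), with a median log2 difference of -0.11, a smallest adjusted p of 0.422 and 2 members at an unadjusted p under 0.05.

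The sequences before the starts of the rising interferon genes were searched for the interferon-stimulated response element, because members that moved together can be read against it. The letters searched were GAAA, any 2 bases and GAAA again, on both strands with overlapping matches counted, in the 250 bases before each RefSeq start (build GRCm38.p6). Of 25 members of the list matched by symbol, 13 held the element (52%), against 3.46% of 27025 genes. It was present in 8 of 16 members that rose and in 5 of 9 that were not called. A match is a description of these letters and not of a bound site. The 5 windows shown belong to the called members with the smallest p that held the element, after members on a single chromosome were left out of the choice. Each window reaches 25 bases to either side of the matches where the start of the gene allowed, with the matched letters in capitals:
Cxcl10, chr5:92349068-92349127, minus strand: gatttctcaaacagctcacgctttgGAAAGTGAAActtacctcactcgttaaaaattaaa
Ifit3, chr19:34583348-34583441, plus strand: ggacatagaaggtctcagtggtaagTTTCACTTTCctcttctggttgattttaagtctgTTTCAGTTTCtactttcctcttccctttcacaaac
Rsad2, chr12:26456538-26456597, minus strand: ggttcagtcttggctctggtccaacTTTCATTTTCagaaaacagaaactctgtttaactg
Gbp2, chr3:142620579-142620638, plus strand: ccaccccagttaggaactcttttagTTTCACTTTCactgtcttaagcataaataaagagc
Irgm1, chr11:48871421-48871475, minus strand: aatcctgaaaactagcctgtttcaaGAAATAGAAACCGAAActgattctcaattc

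Each window reads along the strand of its gene. In Cxcl10 and Irgm1 the letters lay on the gene's strand and in Ifit3, Rsad2 and Gbp2 on the other strand. Ifit3 held 2 separate matches, beginning 156 and 122 bases before its start, and Irgm1 held 2 overlapping ones. Rsad2, an antiviral enzyme, read 1165 and 1211 in bone marrow and 7080 and 6150 in injured muscle. Gbp2 and Irgm1, GTPases that act on vacuoles of microbes, rose 6.15-fold and 3.71-fold. The letters GAGGAAGT of the myeloid factor PU.1, searched in the same way, were found before 0 of 18 matched macrophage genes and before 2.79% of all genes.

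**Figure D4:**
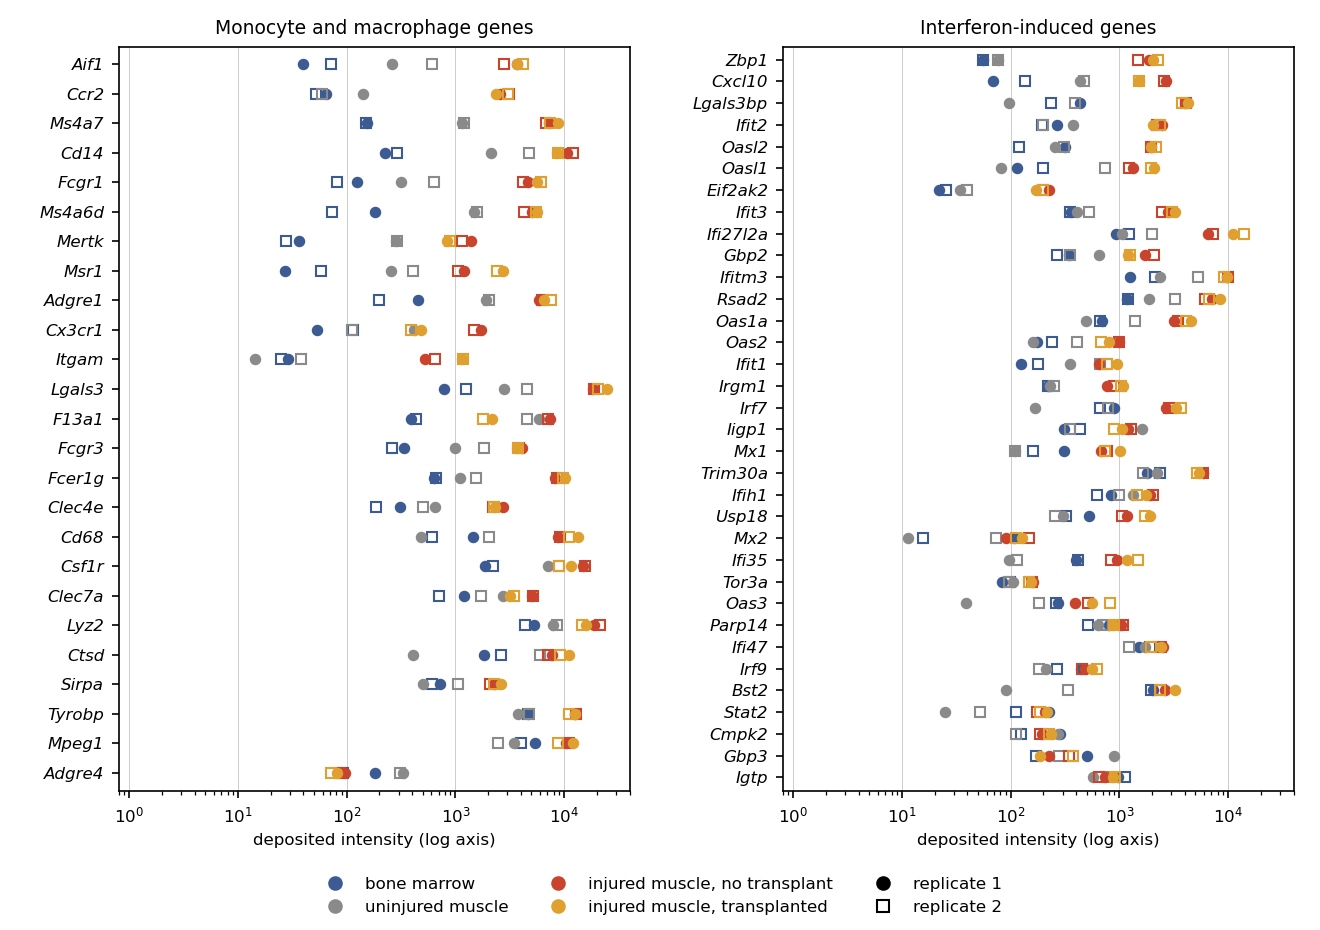
Deposited intensity (log axis) of all tested monocyte and macrophage genes (left) and interferon-induced genes (right), ordered by the difference between injured muscle and bone marrow, on the 8 arrays, with colours for the 4 groups and symbols for replicates 1 and 2. For 24 of the 25 macrophage genes all injured arrays lie above both bone marrow arrays, and for 15 the uninjured arrays lie between them. The shares of all tested genes with these orders were not counted. Untransplanted injured and bone marrow arrays alone did not overlap, in either direction, for 73.2% of genes.

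Of 14 genes of MHC class I presentation 3 were higher and 0 lower, a higher count of 1 to 4 over those other settings with 1 lower without either uninjured array, and centring on the spiked controls left 0 higher and 11 lower. B2m, the chain shared by class I molecules, rose 3.09-fold from 6216 and 4711 to 16349 and 17154, and Pdia3, a chaperone of peptide loading, rose 3.98-fold. H2-K1 rose 1.92-fold on its brightest probe set and was lower on the dimmest of its 4, and it was not called after quantile normalization (log2 0.00), while H2-D1 at log2 1.08 was not called (adjusted p = 0.0578, limma). B2m was not called after quantile normalization either. Of 10 class II genes 3 were higher and 2 lower, and after centring on the spiked controls 0 were higher and 6 lower. H2-Aa, an alpha chain of the class II molecule, read 5559 and 6003 in bone marrow, 17131 and 19782 in untransplanted injured muscle and 5713 and 5202 in transplanted injured muscle. It was higher than in bone marrow by log2 1.67 and than in transplanted injured muscle by 1.75, both called, though centring on the spiked controls turned the first to -0.12 and 1 of its 2 probe sets was not called against bone marrow. Ifi30, which reduces disulphide bonds of antigens, rose 5-fold and Ctss, which trims the class II chaperone, 2.48-fold. H2-Oa, a class II modulator of B cells, fell 8.43-fold and H2-DMb2 4.4-fold. The lower count was 0 without bone marrow replicate 2 or either injured array, and 1 without bone marrow replicate 1 or either transplanted array.

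Dendritic cell genes gave 6 higher and 3 lower of 18 tested, and 1 higher and 12 lower after centring on the spiked controls. The costimulator Cd86 rose 6.1-fold from 193 and 176 to 1186 and 1104, and Fscn1, an actin bundler of mature dendritic cells, 7.38-fold. The second probe set of Fscn1 was not called (log2 -0.26). Flt3, a cytokine receptor of progenitors and dendritic cells, fell 6.45-fold from 854 and 905 to 123 and 144. Irf8, a factor of monocyte and dendritic cell development, fell 4.83-fold from 6280 and 6537 to 1401 and 1251 on its brightest probe set. The second probe set of Irf8 read 735 and 3483 against 1225 and 1500 and was not called (log2 -0.24). The higher count was 3 without injured replicate 1 or either transplanted array and 2 without injured replicate 2.

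Genes of iron and heme handling were higher for 8 of 14 tested members and lower for 2. Cd163, the receptor for haemoglobin bound to haptoglobin, rose 12.5-fold from 40.9 and 35.3 to 553 and 494, Hfe, a regulator of iron uptake, 9-fold and Slc11a1, an iron transporter of the phagosome, 14.8-fold. Lcn2, a granule protein that binds bacterial iron carriers, fell at least 117-fold from 5581 and 4366 to 34.1 and 31.4. The transferrin receptor Tfrc fell 4.44-fold, and its second probe set was not called (log2 -0.27). Centring on the spiked controls left 4 higher and 4 lower.

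Fibroblast and matrix genes were high in injured muscle although the cells were sorted for CD45. Of 25 fibroblast and mesenchymal genes tested 21 were higher and 0 lower (median log2 difference 5.65), and for 14 of the 16 members with several probe sets all were called higher. Bgn, a proteoglycan that binds collagen, read 9.77 and 23.8 in bone marrow and 2639 and 3036 in injured muscle, at least 66.9-fold higher on the brightest of 3 probe sets. Pcolce, which helps to trim collagen precursors, read 5.34 and 5.91 against 1462 and 1494, and Loxl1, a cross-linking enzyme, was at least 15.6-fold higher. Summed over its members the list read 1974 and 1440 in marrow, 56687 and 19573 in uninjured muscle, 43122 and 42734 in untransplanted injured muscle and 11450 and 9809 in transplanted injured muscle. These sums did not overlap between bone marrow and any muscle group, and the 2 uninjured arrays differed most from each other. The higher count held at 19 to 23 over those other settings and 19 after centring on the spiked controls. Whether these transcripts came from CD45+ cells or from other cells in the sort was not tested.

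Matrix remodelling genes were higher for 18 of 22 tested members and lower for 1. Tgfbi, an adhesion protein of the matrix, rose 13.7-fold from 622 and 822 to 9789 and 9974 on all 4 of its probe sets, and Timp2, an inhibitor of metalloproteinases, 11.5-fold on all 5. Mmp12, the elastase of macrophages, read 2.7 and 3.3 against 444 and 461, at least 10.8-fold higher. Postn and Mgp, matrix proteins of wounds and of calcifying tissue, were at least 68.1-fold and 31.3-fold higher. The lower member was Mmp9, the gelatinase stored by neutrophils, which fell 8.17-fold from 1021 and 1080 to 123 and 127.

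Growth factors and receptors used in repair were higher for 13 of 25 tested members and lower for 1. Igf1, a growth factor for muscle, rose 24.8-fold from 50.1 and 36.8 to 840 and 1604 on all 3 of its probe sets, and Pdgfc, a growth factor for mesenchymal cells, rose 11.8-fold on both. Igfbp7 and Igfbp5, binding proteins for insulin-like growth factors, rose 10.4-fold and at least 3.81-fold, each on 1 of 2 probe sets. The lower member was Igfbp4, whose probe sets disagreed, and it was not called without injured replicate 1. The higher count was 8 without bone marrow replicate 1, 6 without injured replicate 1 and 7 without injured replicate 2, and centring on the spiked controls left 5 higher and 6 lower.

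Of 20 endothelial genes 4 were higher and 3 lower, and after centring on the spiked controls 2 were higher and 9 lower. Cav1, a coat protein of membrane pits, rose 13.8-fold from 43.3 and 37.9 to 642 and 576, and Fabp4 at least 10.6-fold. Kdr, a receptor for vascular endothelial growth factor, fell 4.79-fold and Egfl7 6.69-fold. Not all probe sets of Fabp4 (down to log2 -0.60) and Egfl7 (up to log2 1.23) were called. The other members called were Aqp1 and Vwf, which were higher, and Cdh5, which was lower. Against uninjured muscle 15 of the 20 were lower in injured muscle (15.1% of all genes were). The higher endothelial count was 2 without bone marrow replicate 1 or either injured array, the lower count was 1 without injured replicate 2, and Egfl7 was not called without injured replicate 2. Of 10 pericyte and smooth muscle genes 4 were higher, namely Acta2, the smooth muscle actin, from 145 and 150 to 589 and 540, with Rgs5, Myl9 and Tagln. Rgs5 was called on its brightest probe set only. Tagln was not called without injured replicate 1, and centring on the spiked controls left 2 pericyte genes higher and 3 lower.

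Muscle fibre genes were higher for 6 of 23 tested members and lower for 4, or 2 lower without either bone marrow or either injured array. Centring on the spiked controls left 3 higher and 9 lower. Tnnc2 and Myl1, a troponin and a myosin chain of fast fibres, read 2.49 and 2.18, and 3.62 and 2.67, in bone marrow, and 121 and 96.6, and 133 and 186, in injured muscle. Mylpf, another myosin chain, rose 5.53-fold from 41.6 and 40.4 to 239 and 251. Cox6a2, a respiratory subunit of striated muscle, went the other way, from 2435 and 1892 to 95.3 and 75.4, as did Pygm, Ryr1 and Tnni2. The 4 lower members were 17.4% of those tested, near the 17.2% of all genes. Summed over its members the fibre list read 3780 and 3201 in bone marrow and 2072 and 2032 in untransplanted injured muscle. Cox6a2 alone gave 2435 and 1892 of the bone marrow sums. In uninjured muscle the sums were 8333 and 10133, and 15 of the 23 members were lower in injured than in uninjured muscle (15.1% of all genes were). Of 16 satellite and myogenic genes on the array 7 were tested, and 3 were higher: Chrna1, a subunit of the acetylcholine receptor, Myog, a factor of muscle differentiation, and Sdc4, a surface proteoglycan with a second probe set called lower. Chrna1 read 18.9 and 19.2 against 106 and 106. The count was 1 without bone marrow replicate 1 or injured replicate 2, where Myog and Sdc4 were not called, and Sdc4 was also not called without injured replicate 1. Centring on the spiked controls left 0 satellite genes higher and 1 lower.

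Of 14 mast cell, basophil and eosinophil genes tested 5 were higher (Cma1, Cpa3, Fcer1a, Mcpt4 and Tpsb2) and 6 lower, against 2 higher and 8 lower after centring on the spiked controls. Cma1, the mast cell chymase, read 36.7 and 40.2 in marrow, 2402 and 2258 in uninjured muscle, 1428 and 1333 in untransplanted injured muscle and 92 and 67.1 in transplanted injured muscle. Mcpt4, another chymase, read 3.39 and 18.4 in bone marrow and 551 and 411 in untransplanted injured muscle. Mcpt8, a protease of basophils, fell at least 11.2-fold from 418 and 528 to 6.88 and 1.85. Gata2, a factor of progenitors, mast cells and basophils, fell 7.57-fold, and its second probe set was not called (log2 0.65). The higher count was 3 without either bone marrow array, 2 without injured replicate 1 and 3 without injured replicate 2, and the lower count 3 without bone marrow replicate 2 or injured replicate 2.

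Of 12 megakaryocyte and platelet genes 4 were higher and 1 lower, against 2 higher and 7 lower after centring on the spiked controls. Pf4, a chemokine of platelets that macrophages also make, rose 19.2-fold from 295 and 657 to 7821 and 9349, and Ppbp, another platelet chemokine, 5.38-fold; the other higher members were F13a1 and Vwf. F2r, the thrombin receptor, fell 10.9-fold from 1566 and 1874 to 142 and 165. Its second probe set read 100 and 109 against 94.6 and 110 and was not called. Without injured replicate 2 the higher count was 2 and Ppbp was not called.

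Neutrophil granule genes were lower for 16 of 18 tested members and higher for 1, the lowest median of any list at log2 -5.34. Ngp, a granule protein of neutrophil precursors, read 8722 and 9434 in bone marrow and 33.3 and 28.2 in injured muscle, at least 214-fold lower (log2 -8.03 ± 0.35, adjusted p = 2.09e-05, limma). Camp, an antimicrobial peptide, and Ltf, the iron-binding lactoferrin, fell at least 150-fold and 135-fold. S100a8 and S100a9, the calcium-binding pair that fills the neutrophil cytoplasm, fell 70.7-fold and 46.4-fold from 6884 and 8871 to 146 and 77.5 and from 7236 and 7892 to 143 and 177. The higher member was Anxa1, a phospholipid-binding protein that many cell types make, at log2 0.76, which lost its call without either bone marrow, either injured or either transplanted array. The lower count was 15 or 16 under every other normalization, filter and fit and with each array left out. The summed list read 55583 and 67857 in marrow, 44209 and 26236 in uninjured muscle, 7293 and 8181 in untransplanted injured muscle and 11964 and 14602 in transplanted injured muscle, and 15 of the 18 members were also lower than in uninjured muscle.

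**Figure D5:**
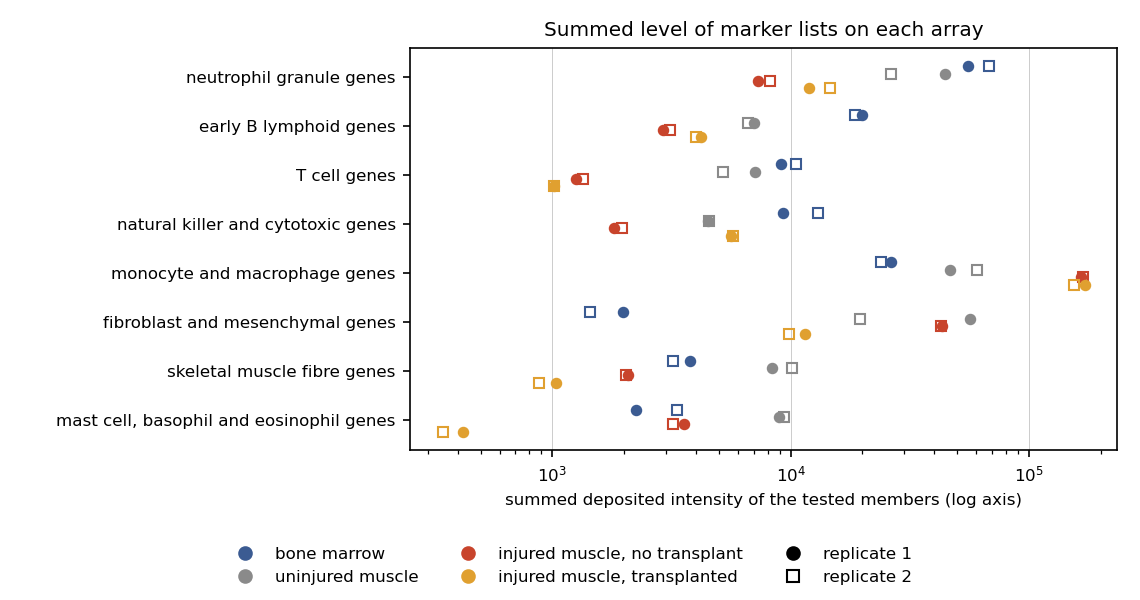
Deposited intensity (log axis) summed over the members of 8 marker lists on each of the 8 arrays, with colours for the groups, filled circles for replicate 1 and open squares for replicate 2. The sums hold all list members present on the array type, not only the tested ones that the axis names. Neutrophil, B, T and natural killer lists are highest in bone marrow, the macrophage list is highest in both injured groups, and the fibroblast list is lowest in bone marrow.

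Of 15 early B lymphoid genes 11 were lower and 0 higher, and for 3 of the 6 members with several probe sets all were called lower. Dntt, the enzyme that adds bases at joined antigen receptor genes, read 4032 and 4104 in bone marrow and 13.8 and 33.4 in injured muscle, at least 96.1-fold lower on the brightest of 3 probe sets that all fell. Pou2af1, a coactivator of antibody genes, fell at least 36.5-fold, and Cd79b and Cd79a, the signalling chains of the B cell receptor, 26.6-fold and at least 47.7-fold. Without either uninjured array 1 member was higher. Of 18 mature B and plasma cell genes 12 were lower and 2 higher, and for 3 of the 7 members with several probe sets all were called lower. Jchain, which joins secreted antibodies, read 4052 and 3439 against 7.05 and 3.82, at least 88.2-fold lower, and Tnfrsf13c, the receptor for a B cell survival factor, read 606 and 646 against 12.5 and 19.6. Ighm, the heavy chain of IgM, was lower on all 8 of its probe sets but still read 2717 and 2645 in injured muscle on the brightest. The higher members were Prdm1, a factor of plasma cells that macrophages also express, at log2 2.89, and Cd72 at 1.31, and 1 was called without either bone marrow, either injured or either transplanted array.

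T cell genes were lower for 17 of 21 tested members and higher for 0, and natural killer and cytotoxic genes lower for 14 of 20 and higher for 1. Agreement of probe sets was rare in both lists. All probe sets were called lower for 1 of 5 T cell members with several and for 0 of 5 such natural killer members. Cd3d, a chain of the T cell receptor complex, fell 18.7-fold from 1024 and 928 to 57.1 and 40.9, and Cd2, an adhesion receptor of T and natural killer cells, 17.4-fold from 1086 and 1054 to 60.4 and 55.1. Lat, the adaptor below the T cell receptor, fell 10.4-fold and Cd8b1, a chain of the coreceptor of cytotoxic T cells, 9.11-fold. The lower T cell count was 11 without bone marrow replicate 1 or injured replicate 2. Nkg7, a granule membrane protein of cytotoxic cells, fell 29-fold from 1533 and 2139 to 56.6 and 60.8, and Ifng, the gene of interferon gamma, 32.2-fold from 1063 and 1345 to 41.1 and 26.7. Ctsw, a protease of cytotoxic cells, fell 13.6-fold. The higher member was Klrk1, an activating receptor, at log2 1.20, which was not called without either bone marrow, either injured or either transplanted array.

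Stem and progenitor genes were lower for 15 of 25 tested members and higher for 1. For 3 of the 8 members with several probe sets all were called lower. Gfi1, a repressor needed by stem cells and neutrophil precursors, read 209 and 256 in bone marrow and 0.51 and 1.13 in injured muscle, at least 5.55-fold lower. Hlf, a factor of blood stem cells, read 370 and 238 against 8.58 and 4.2, at least 7.1-fold lower on the brighter of 2 probe sets that both fell. The count of lower members was 9 without bone marrow replicate 1. The higher member was Cd48, a surface protein of most mature white cells, at log2 1.85, which was not called without either injured array, and 2 members were higher without either uninjured array. Of 10 erythroid genes 3 were lower, namely Nfe2 at least 9.98-fold, Car2, a carbonic anhydrase, 9.69-fold and Tfrc on its brightest probe set only. Cpox was not called. Transcription factors of blood cells went both ways, with 11 of 29 higher and 7 lower. Mitf, a factor of macrophages and mast cells that drives lysosomal genes, rose 9.85-fold from 62 and 51.5 to 627 and 559 on both probe sets, and Bcl11a, a factor of B cells and progenitors, fell 15.2-fold from 686 and 890 to 48.7 and 46.8 on both. The higher count of factors was 6 without injured replicate 1 and 7 without injured replicate 2, and centring on the spiked controls left 2 higher and 11 lower.

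Of 29 DNA replication genes 14 were lower and 0 higher, and all 29 were lower after centring on the spiked controls. Among the 14 members with several probe sets, all were called lower for 3, and 2 had probe sets called in opposite directions. Dut, which keeps uracil out of DNA, fell 13.8-fold from 707 and 699 to 32.2 and 68.2, and Rpa2 and Uhrf1 fell 8.59-fold and 6.35-fold, each on 1 of 2 probe sets. The count was 7 without either bone marrow array, 8 without either transplanted array and 4 without either injured array. Of 26 mitosis genes 4 were lower (Cdc20, Cenpf, Kif2c and Mki67) and 1 higher, against 24 lower and 0 higher after centring on the spiked controls. Cdc20 and Cenpf were lower by 2.17-fold and 3.62-fold, each on its brightest probe set only. Ube2c, which tags mitotic proteins for destruction, was higher by 2.26-fold. All 3 lost their calls without either bone marrow or either injured array, Cdc20 and Ube2c also without either transplanted array. The lower count was 8 and 9 without either uninjured array, 1 without bone marrow replicate 1 or either transplanted array, and 0 without bone marrow replicate 2 or either injured array.

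Early response genes, which also rise while tissue is being taken apart for sorting, were higher for 9 of 28 tested members and lower for 2. Ier3, an early response gene of stressed cells, rose 7.33-fold from 803 and 1082 to 7082 and 6650. Fos rose 2.45-fold from 6192 and 7809 to 16059 and 18089, and Zfp36, which destabilises cytokine messages, and Atf3 rose 2.49-fold and 2.98-fold. The lower members were Dnajb1 and Klf6, and their count was 6 without either uninjured array, 0 without injured replicate 1 or either transplanted array and 1 without bone marrow replicate 1 or injured replicate 2. Klf6 was lower on its brightest probe set only (log2 -0.67), and its other probe sets were called higher (log2 4.82 and 1.30). Centring on the spiked controls left 1 member of the list higher and 18 lower.

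Of 20 ribosomal protein genes 7 were higher and 2 lower, 0 were higher after quantile normalization, and 0 were higher and 19 lower after centring on the spiked controls. Rpl11 rose 1.88-fold from 3514 and 3695 to 6750 and 6826, and Rplp0 and Rpl27 1.82-fold and 2.41-fold, Rpl27 on its brightest probe set only. Rps6 fell 3.52-fold from 851 and 699 to 202 and 232. The higher ribosomal count was 3 without bone marrow replicate 1 and 1 and 2 without either injured array, and the lower count was 1 without bone marrow replicate 2 or either injured array. Of 24 respiratory chain genes 4 were higher and 0 lower, against 0 higher and 21 lower after centring on the spiked controls. These 4 were Atp5g1, Cox5b, Cox6b1 and Sdhb, at 3.31-fold, 1.99-fold, 1.76-fold and 2.29-fold. The respiratory count was 2 and 1 without either injured array, and 1 member was lower without either uninjured array. Of 21 glycolysis and hypoxia genes 4 were higher and 4 lower, against 0 higher and 11 lower after centring on the spiked controls. Ldha, lactate dehydrogenase, rose 2.37-fold, Hk2, a hexokinase, 2.69-fold and Tpi1 2.24-fold, whereas Pgk1 fell 1.87-fold on 1 of 3 probe sets. Vegfa was also higher and Egln3, Hk1 and Pdk1 were also lower. Without single arrays the higher glycolysis count ran from 1, without either injured array, through 2, without bone marrow replicate 2, to 8, without either uninjured array. The lower count was 1 without bone marrow replicate 1 or injured replicate 1, 0 without injured replicate 2 and 2 without either transplanted array.

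Some listed genes had probe sets called in opposite directions, and for these the direction of the gene is not settled by the arrays. Rrm1, a subunit of the enzyme that makes DNA building blocks, read 1533 and 1300 in bone marrow against 494 and 454 in injured muscle on its brightest probe set. Its second probe set read 81.6 and 99.2 against 609 and 604. Igfbp4 had 6 probe sets, of which 2 were called lower, 2 higher and 2 not called, from log2 -2.17 to 3.90. Mcm3, a part of the replicative helicase, was lower on 1 of 5 probe sets and higher on another, Tlr7 higher on 1 and lower on 2, and Lamp2 higher on 3 and lower on 1. The other such genes were H2-K1, Sdc4, Kif2c, Cox5b, Hif1a, Hk1, Klf6 and Rpl7. The position of each probe set along its transcript is not given in the sources used here.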

How the data were processed

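CD45+/Sca1+ cells of 4 groups, 2 arrays each, were measured from 1 µg of total RNA with one-cycle labelling on Mouse 430A arrays, per the labels' protocols. The authors deposited 1 intensity per probe set, made with GCOS per the submitters' processing notes; each array's mean without its extreme 2% at either end is 249.97 to 249.98, so arrays were scaled to 1 mean. The genome build is not given in the sources used here. Of 22690 probe sets, 64 controls were left out. Values under 1 were set to 1 and compared as log2(value + 4), which understates changes of low genes, for the 16289 probe sets reaching 38.4 (the 40th percentile) on at least 2 of 8 arrays. limma 3.58.1 in R 4.3.3 fitted 4 group means to all 8 arrays with an intensity trend (two-sided, Benjamini-Hochberg, 0.05, 4 residual degrees of freedom); the script was tested on simulated data. The annotation gave 20380 probe sets 1 gene, 691 several and 1555 none; 9513 of 12393 genes were tested. The number of arrays limits the precision, with a median SE of 0.45 on the log2 scale.

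Genes named were the 14 in each direction whose probe sets agreed (ranked by the least changed), the 5 largest changes in each direction among genes of 1 probe set, up to 4 members of each list by p, Ptprc, and list members with opposite probe sets. The 14 and the 5 also had to separate the 2 groups on every probe set. Their higher group mean had to reach 64.2, the median of all values, on each. Other members of small counts, Ighm, and the genes of the promoter windows were chosen after their values were seen. The comparison and the lists were chosen with earlier results of these data known. Replicate numbers did not pair the arrays: same-numbered deviations of bone marrow and injured muscle correlated at -0.00209, those of bone marrow and uninjured muscle at 0.313, and not every pair of groups passed 0.1. Promoter sequences came from RefSeq. Alternatives covered normalization, pseudocount, filter, moderation, weights, the block and each array left out.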

Additional observations from a re-analysis of the deposited data

Results flagged for a closer look

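For 11 of the 175 genes named by rule, untransplanted and transplanted injured muscle differed on the brightest probe set in limma's test. The difference of these 11 genes from bone marrow therefore depended on which injured group was used. All 11 were higher without transplant. Of all 9513 genes tested, 26 were higher without transplant in that test (0.273%) and 4 were lower (0.042%). Many named genes were chosen through the same untransplanted arrays, so their direction here is not independent of that choice. The mast cell chymases Mcpt4 and Cma1 were higher by log2 5.38 (551 and 411 against 6.85 and 8.24) and 4.07 (1428 and 1333 against 92 and 67.1). The matrix genes Mgp, Postn and Pcolce were higher by 3.84 (1334 and 1310 against 83 and 94.8), 3.77 (2823 and 2941 against 215 and 199) and 2.54 (1462 and 1494 against 260 and 243). The fast fibre genes Tnnc2, Myl1 and Mylpf were higher by 3.38 (121 and 96.6 against 8.78 and 5.13), 3.24 (133 and 186 against 20.8 and 7.73) and 2.53 (239 and 251 against 41.5 and 36.6). Both transplanted values of Mcpt4, Tnnc2 and Myl1 lay under 38.4, so the sizes of their differences are uncertain. Igfbp4 was higher by 2.62 (1247 and 1426 against 180 and 252). F13a1 was higher by 1.90 (7472 and 7173 against 2163 and 1786). H2-Aa was higher by 1.75 (17131 and 19782 against 5713 and 5202). Cpa3, named above only as a further list member, was also higher without transplant, by 3.82 (882 and 766 against 53.8 and 55.5). So were Bgn and Sparc on probe sets other than the brightest. The 4 genes lower without transplant were Gzma, Gzmb, Txk and Rgs1. Gzma was lower by log2 -4.32 (85.1 and 73.8 against 1660 and 1659) and Gzmb by -3.35 (138 and 114 against 1392 and 1246). Txk and Rgs1 differed by -3.41 and -1.45, with both untransplanted values of Txk under 38.4.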

How the results depend on the processing

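Of 169 named genes called, 137 kept their call in every other normalization, filter and fit, and with each array left out, wherever they were tested. The filter at the 60th percentile left Chrna1 and Myog untested. Leaving out 1 array moved the probe sets called higher between 1258 and 3429 and lower between 1037 and 3589, and the genes whose probe sets all rose or all fell between 107 and 333 and between 37 and 208; with 1 array left in a group, it is assumed to vary like the others. The replicate block gave 2534 probe sets higher and 2591 lower, 244 genes agreeing higher and 140 lower, and ended 1 named call, Klf6. Centring the arrays on the spiked controls, chosen after seeing the data, moved the median log2 difference by -1.79 and left 633 probe sets higher and 11079 lower (5.4% of calls higher against 50%), with 48 and 1527 agreeing genes. It reversed Ptprc (-1.52), Rpl7 (-1.32), Lamp2 (-1.01), Cox6b1 (-0.97), Rplp0 (-0.93), Rpl11 (-0.88), H2-K1 (-0.85), Cox5b (-0.80), Tpi1 (-0.63), Ube2c (-0.62), Sdhb (-0.59), Ldha (-0.55), Rpl27 (-0.52), Fos (-0.50), Ctss (-0.48), Zfp36 (-0.48), Hk2 (-0.36), Atf3 (-0.22), Tlr7 (-0.18), B2m (-0.16), H2-Aa (-0.12), Sdc4 (-0.11) and Atp5g1 (-0.06). The cause was not tested. Probe sets under the filter have no usable level.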
